A study of Drosophila melanogaster with 3 samples.

Results

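Transcripts of cell cycle and DNA replication genes were compared between larval hearts of hand173 and w1118 animals. The genes were chosen by a list of 40 CG numbers that covers cyclins, cyclin-dependent kinases (Cdks) and their regulators, E2F and Rb proteins, activators of the anaphase-promoting complex, the MCM helicase, the origin recognition complex, ribonucleotide reductase and checkpoint genes. Of these, 20 had a row in the table of 7498 genes used here, and the other 20 had none. The list was made from gene functions and not from the array values. The array values nevertheless were known when it was made.

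The hand173 animals were homozygous for a null allele of *hand*, which encodes a basic helix-loop-helix transcription factor of heart cells, and w1118 animals served as wild type. Rearing was at 22 °C for both genotypes. Hearts came from wandering larvae of the final instar, which had been placed in water of 60 °C for 15 seconds before dissection. About 100 heart tubes per genotype were combined into 1 RNA pool, together with pericardial cells and attached muscle, which the labels call longitudinal ventral and the methods alary muscles. Both pools were amplified and hybridized together on 3 spotted arrays, with hand173 RNA in Alexa Fluor 647 and w1118 RNA in Alexa Fluor 555 on each, without a dye swap. The deposited value is the log2 ratio of hand173 over w1118, so that a value above 0 stands for a higher level in hand173. The methods call the arrays technical replicates, while the sample titles carry the abbreviation bR, which is not spelled out. They were taken as technical here. On that reading nothing replicates the comparison of the genotypes, and every SD and p given covers the spread between arrays only. In such bulk tissue, fewer cells of a type and less RNA per cell cannot be told apart.

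The cell cycle is driven by Cdks that are switched on by cyclins. Cyclin D with Cdk4 promotes growth and inactivates Rb proteins, cyclin E with Cdk2 starts DNA replication, and cyclins A, B and B3 with Cdk1 bring cells into mitosis. Before replication, the origin recognition complex and the MCM helicase are loaded onto DNA, a step called licensing that Geminin blocks. Most larval tissues of *Drosophila* grow by endocycles, in which cyclin E and Cdk2 drive rounds of replication without mitosis and Fzr, an activator of the anaphase-promoting complex, keeps mitotic cyclins low. Mitotic divisions continue in imaginal discs, neuroblasts and blood cell progenitors.

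The 3 arrays differed in how many genes they measured and in their overall level. Array 1 held 1372 values with a median log2 ratio of 0.97, array 2 held 2650 with a median of 0.38, and array 3 held 6459 with a median of -0.56. Values were therefore used as deposited and also centred, that is with the median of the array subtracted. A percentile, the share of the genes of an array with a lower value, depends on neither level. Arrays 2 and 3 were correlated across the 1982 genes they share (Pearson's r = 0.77), whereas array 1 was hardly correlated with array 3 (r = 0.14 over 937 genes) or array 2 (r = 0.09 over 530 genes). Genes are not independent replicates. The *hand* transcript itself was measured only by array 3, where its log2 ratio was -0.16 as deposited and 0.40 with the array centred, at percentile 72.0. It was thus not low in the pool labelled hand173. A single ratio of a transcript cannot show whether the protein was absent, so that it does not check the null label. Where the spotted probe lies relative to the mutation is not given in the sources used here, and every direction given for hand173 rests on the labels.

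Of the 20 cell cycle and replication genes with a row, all 20 had a value on array 3, 8 on array 2 and 5 on array 1. Values on at least 2 arrays were present for 9 genes and on a single array for 11. The share of these genes with a value on array 1 was 25%, against 18.3% of all rows, and on array 2 it was 40.0%, against 35.3%. Of the listed numbers 50.0% had a row, and of the 13951 protein-coding genes in the RefSeq annotation 49.5% had one. The 20 genes without a row, about which nothing can be said here, were *CycA*, *CycB3*, *Cdk1*, *Cks30A*, *stg*, *Myt1*, *E2f1*, *E2f2*, *PCNA*, *dup*, *Orc2*, *grp* and *p53*, 5 of the 6 MCM subunits and both subunits of ribonucleotide reductase. Mitotic cyclins and the S phase genes that are the usual markers of dividing cells thus mostly had no row.

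**Figure D1:**
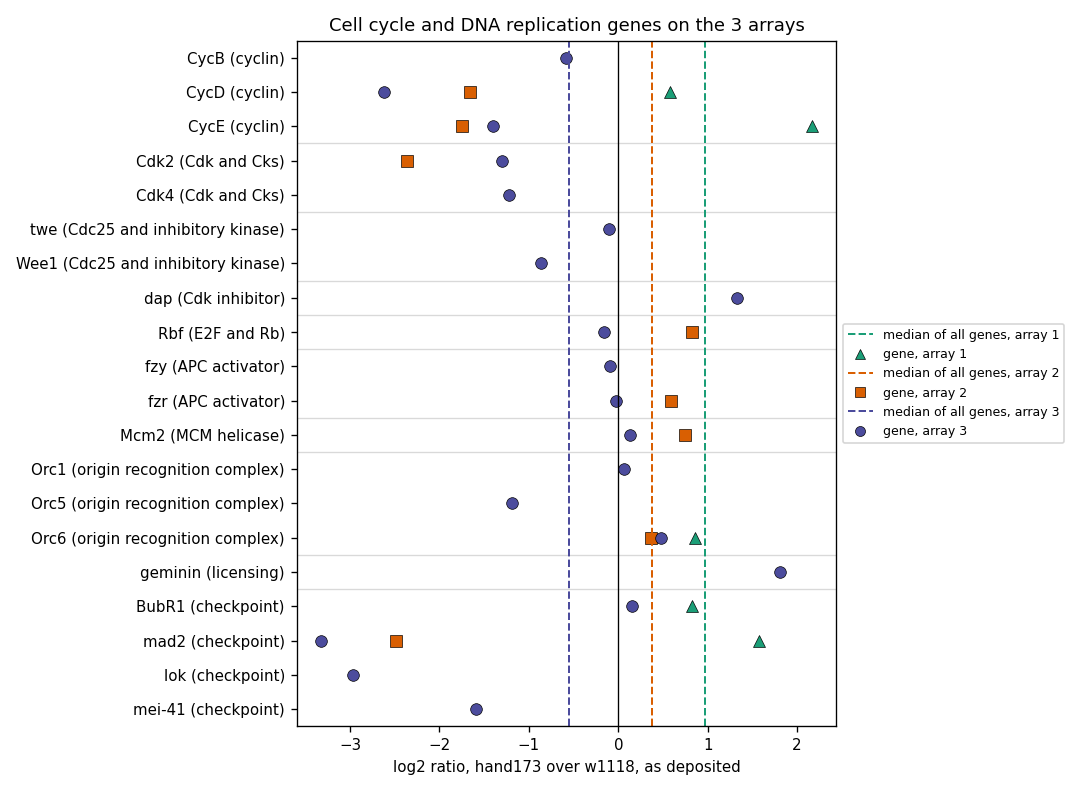
Log2 ratio of hand173 over w1118 as deposited (x axis) for the 20 genes with a row (y axis, with their role), with 1 symbol per array and dashed lines at the median of all genes of each array. *CycD*, *CycE*, *Cdk2* and *mad2* lie low on arrays 2 and 3, and the 3 of them with a value on array 1 lie above 0 there.

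The study's rule scores a gene as higher in hand173 when at least 2 of the 3 arrays give a ratio over 1.33, and as lower when at least 2 give one under 0.67. By this rule, 4 of the 9 genes with at least 2 values were lower in hand173 and 1 was higher. Among all 2517 genes with at least 2 values, 20.5% were scored as lower and 9.69% as higher. The 4 lower genes were *CycD*, *CycE*, *Cdk2* and *mad2*, and the higher gene was *Orc6*. On centred arrays the same 4 genes were scored as lower, against 21.9% of all genes, and none as higher, against 11.8%. Without array 2 or without array 3, and both arrays left required to pass, 0 genes were lower, and without array 1 or without array 3, 0 were higher. The rule includes no test. In limma over all 2517 genes with the arrays taken as independent, 0 of the 9 genes passed a Benjamini-Hochberg adjusted p threshold of 0.05. At an unadjusted threshold of 0.05, 2 of the 9 (*Cdk2* and *mad2*) were lower, against 11.9% of all genes. Adjusted calls made up 5.40% (lower) and 0.318% (higher) of all genes, and 1.51% were higher at the unadjusted threshold. On centred arrays the adjusted count among the 9 genes was again 0, with 5.88% of all genes lower and none higher, and at the unadjusted threshold 2 of the 9 (*CycD* and *Cdk2*, not *mad2*) were lower, against 18.0% of all genes, and none higher, against 2.82%. The fit to the deposited values gave each gene the same spread, so that a gene's own SD did not enter it.

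Cyclin D (*CycD*, CG9096), the regulatory partner of Cdk4, had a log2 ratio of 0.58 on array 1, -1.65 on array 2 and -2.62 on array 3. It lay at percentile 10.8 of array 2 and percentile 5.84 of array 3, but also below the median of array 1, at percentile 26.9. Its mean log2 ratio was -1.23 ± 1.64 (SD, n = 3 arrays), or 42.6% of the wild type level, and thus smaller than the spread between arrays. On centred arrays all 3 values of *CycD* were below 0, at -0.39, -2.03 and -2.06, with a mean of -1.50 ± 0.96.

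Cyclin E (*CycE*, CG3938), which activates Cdk2 at the start of S phase, had a log2 ratio of 2.16 on array 1, -1.75 on array 2 and -1.41 on array 3. Array 1 was thus opposed to the others, with *CycE* at percentile 94.5 there and at percentiles 9.96 and 21.4 of arrays 2 and 3. The mean of -0.33 ± 2.17 (SD, n = 3 arrays) was smaller than the spread between the arrays. Without array 2 it was 0.38 and without array 3 it was 0.21, both above 0.

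*Cdk2* (CG10498), the kinase partner of Cyclin E, had a log2 ratio of -2.37 on array 2 and -1.31 on array 3, and no value on array 1. Its mean of -1.84 ± 0.75 (SD, n = 2 arrays), or 28.0% of the wild type level, was the lowest of the 9 genes as deposited, but it includes no value of array 1. On arrays 2 and 3 alone, *mad2* (-2.90) and *CycD* (-2.14) had lower means. The limma adjusted p over all genes was 0.224. *Cdk2* lay at percentile 5.62 of array 2 and percentile 23.5 of array 3.

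*Cdk4* (CG5072), the partner of Cyclin D, was measured on array 3 only, with a log2 ratio of -1.23 at percentile 25.4. On array 3, the 2 cyclins and the 2 kinases of the G1 phase thus all lay below the median of the array, *CycD* at -2.62, *CycE* at -1.41, *Cdk2* at -1.31 and *Cdk4* at -1.23. *CycB* (CG3510), the only mitotic cyclin with a value, had a log2 ratio of -0.59 on array 3, next to the median of that array.

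The kinases and phosphatases that act on Cdks lay on either side of the array 3 median. Wee1 (CG4488), a kinase that holds Cdk1 inactive, had a log2 ratio of -0.87 at percentile 36.5. Twine (*twe*, CG4965), a phosphatase of the Cdc25 family known for its role in meiosis, had -0.10 at percentile 75.6. Dacapo (*dap*, CG1772), the p21-like inhibitor of Cyclin E and Cdk2, had 1.33, or 2.51 times the wild type level, at percentile 98.8. Each of these genes had its single value on array 3, so that none has a second array to set beside it.

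The Rb protein gene *Rbf* (CG7413), which restrains E2F, had a log2 ratio of 0.83 on array 2 and -0.16 on array 3. On centred arrays these values were 0.45 and 0.40, with a mean of 0.42 ± 0.04 (SD, n = 2 arrays), so that *Rbf* stood a little above the middle of both arrays without passing the rule. The mean as deposited was 0.33 ± 0.70. Fizzy-related (*fzr*, CG3000), which directs the anaphase-promoting complex during G1 and the endocycle, had 0.60 on array 2 and -0.03 on array 3, with a centred mean of 0.37 ± 0.22. Its mitotic counterpart *fzy* (CG4274), the fly Cdc20, had -0.09 on array 3 only, at percentile 76.1, close to *fzr* at percentile 79.5.

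Of the replication apparatus, *Mcm2* (CG7538) was the only helicase subunit with a value. Its log2 ratio was 0.74 on array 2 and 0.13 on array 3, and its centred mean of 0.53 ± 0.22 (SD, n = 2 arrays) was the highest of the 9 genes. As deposited, the value on array 2 passed 1.33-fold and that on array 3 did not, and on centred arrays (0.37 and 0.69) it was the other way round. Orc6 (CG1584), a subunit of the origin recognition complex, had 0.86 on array 1, 0.37 on array 2 and 0.48 on array 3, averaging 0.57 ± 0.26 (SD, n = 3 arrays), or 148.5% of the wild type level. It was the only one of the 4 genes with 3 values to be above 0 on every array. It passed the rule on arrays 1 and 3, and its ratio of 1.29 on array 2 lay just under the threshold. With the arrays centred, its values were -0.10, -0.0062 and 1.03, which no longer passed.

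Of the other listed subunits of the origin recognition complex, *Orc1* and *Orc5* were measured on array 3 only. *Orc1* (CG10667) had a log2 ratio of 0.07 at percentile 83.6, whereas *Orc5* (CG7833) had -1.19 at percentile 26.5. *Orc6* lay at percentile 94.3 of the same array. The 3 subunits thus did not share a direction relative to the array median. Geminin (CG3183), the inhibitor of licensing, had the highest value of all 20 genes on array 3, a log2 ratio of 1.80, or 3.49 times the wild type level, at percentile 99.4. As for *dap*, no other array measured it.

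**Figure D2:**
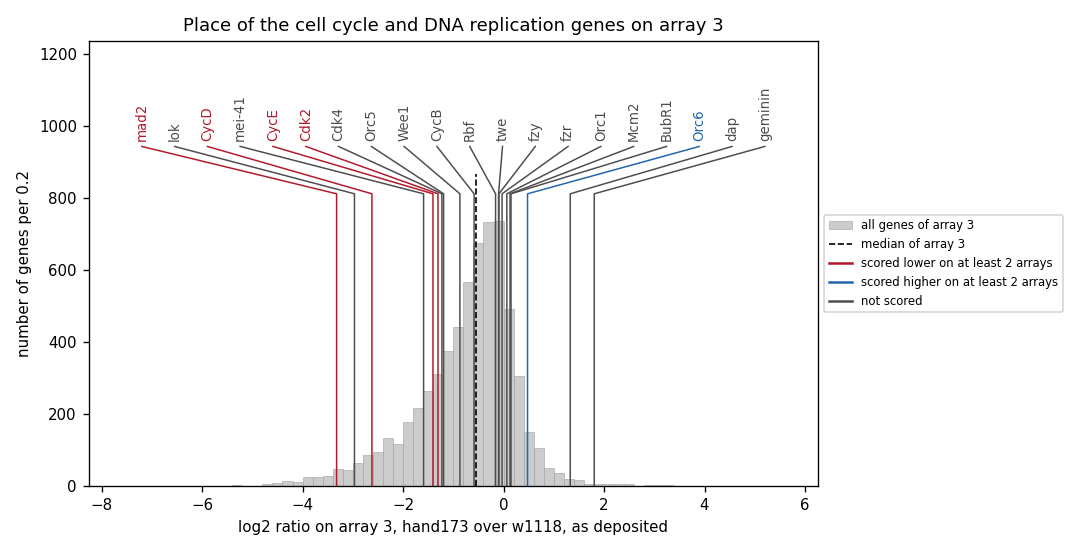
Distribution of the log2 ratios of all 6459 genes on array 3 (x axis, with the number of genes per bin of 0.2 on the y axis) and the place of the 20 cell cycle and replication genes, coloured by the rule of at least 2 arrays. The inhibitors *dap* and *geminin* lie at the upper end and *mad2*, *lok* and *CycD* at the lower end.

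Among the checkpoint genes, *mad2* (CG17498), a component of the spindle assembly checkpoint, had a log2 ratio of 1.57 on array 1, -2.48 on array 2 and -3.32 on array 3. On array 3 this was 0.0999 times the wild type level, the lowest of the 20 genes, at percentile 2.35, whereas on array 1 it lay at percentile 83.5. The mean of -1.41 ± 2.62 (SD, n = 3 arrays) was smaller than the spread, and without array 1 the arrays left gave -2.48 and -3.32. BubR1 (CG7838), which acts in the same checkpoint, had 0.83 on array 1 and 0.15 on array 3, averaging 0.49 ± 0.48 (SD, n = 2 arrays). On array 3 *BubR1* was at percentile 86.9, so that *mad2* and *BubR1* lay on opposite sides of the array median. On array 1 *BubR1* was at percentile 39.4, below *mad2*.

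Of the listed DNA damage kinases, *lok* and *mei-41* were measured, on array 3 only, and both lay low. *lok* (CG10895), the fly Chk2, had a log2 ratio of -2.97 at percentile 3.72, or 12.8% of the wild type level. *mei-41* (CG4252), the fly ATR, had -1.59 at percentile 17.5. No second value is present for either kinase.

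On array 3, the 20 genes spread more widely than the genes of the array as a whole. The SD of their log2 ratios was 1.32, against 1.04 for all 6459 genes, and 6 lay in the lowest 25% of the array and 9 in the highest 25%. Their median log2 ratio of -0.37 was 0.18 above the median of the array, and 10 genes lay on each side of it. Under 0.67 as deposited lay 10 of the 20, against 49.0% of all genes of the array, and over 1.33 lay 3, against 6.50%. With the array centred, 8 lay under 0.67, against 28.1%, and 9 over 1.33, against 27.3%. Values far from the median of the array thus lay on both sides of it. From the lowest upwards, the order on array 3 was *mad2*, *lok*, *CycD*, *mei-41*, *CycE*, *Cdk2*, *Cdk4*, *Orc5*, *Wee1*, *CycB*, *Rbf*, *twe*, *fzy*, *fzr*, *Orc1*, *Mcm2*, *BubR1*, *Orc6*, *dap* and *geminin*. The 9 genes with 2 or 3 values had a median SD between arrays of 0.70 as deposited and 0.63 on centred arrays. Of the 19 steps between neighbours in the order, 17 did not exceed the median SD as deposited, so that most neighbours cannot be told apart. The 2 larger steps were from *CycD* to *mei-41* (1.03) and from *Orc6* to *dap* (0.85). Of the 20 genes, 11 have their only value on this array, so that their own spread between arrays is unknown.

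Grouped by phase, 9 genes of S phase and its control (from *CycE* and *Cdk2* to licensing) had a median log2 ratio of 0.07 on array 3. Of these, 3 lay below the median of the array. The group mixes genes that restrain S phase, *dap* (1.33), *geminin* (1.80) and *Rbf* (-0.16), with genes that drive it, such as *CycE* (-1.41) and *Cdk2* (-1.31). The 6 genes of mitotic entry, mitotic exit and the spindle checkpoint had a median of -0.34, with 3 below the array median. The remaining 5 genes (*CycD*, *Cdk4*, *fzr*, *lok* and *mei-41*) had a median of -1.59, with 4 below. The median of the mean log2 ratio over the 9 genes with at least 2 values was 0.28, against 0.05 over all 2517 such genes. It stood at -0.65 without array 1, over the 8 genes with values on both other arrays, and at -0.78 over the 4 genes with 3 values. Both settings leave out some of the 9 genes, so that the change of sign cannot be credited to the arrays alone.

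**Figure D3:**
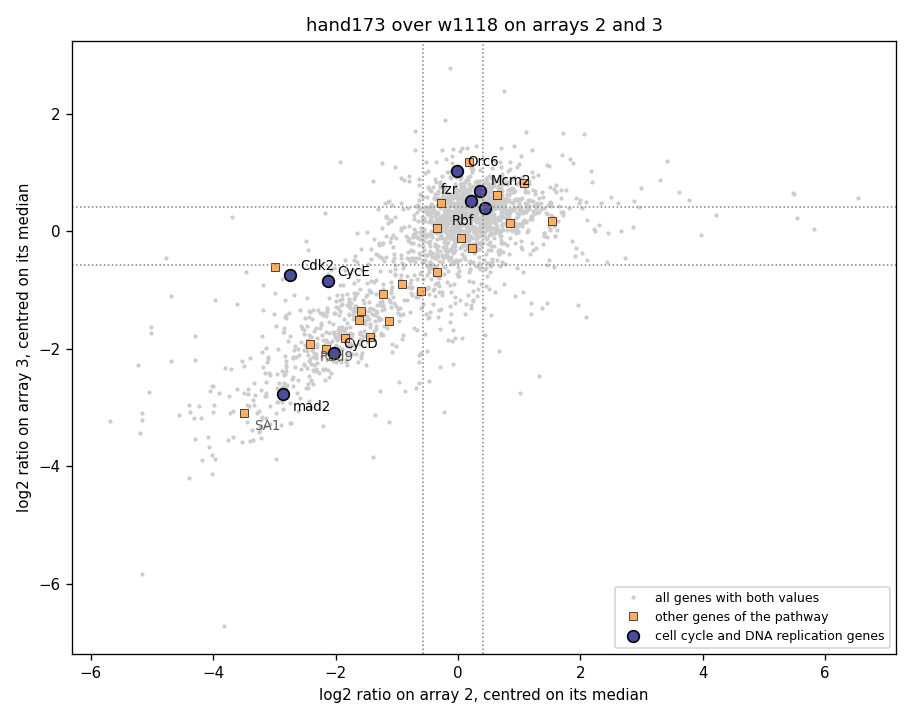
Log2 ratios of hand173 over w1118 on array 2 (x axis) and array 3 (y axis), both centred on the median of the array, for the 1982 genes with both values (grey), the 8 cell cycle and replication genes among them (circles) and other genes of the pathway (squares). Dotted lines mark 0.67 and 1.33. *CycD*, *CycE*, *Cdk2* and *mad2* lie under 0.67 on both arrays, and *Rbf*, *fzr*, *Mcm2* and *Orc6* lie near or above the middle of both.

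The 4 lower genes were scored on arrays 2 and 3, and 3 of them had a value on array 1, all above 0. Of all values of array 1, 87.0% were above 0, and of the 209 genes under 0.67 on arrays 2 and 3 with a value on array 1, 163 (78.0%) were above 0 there. With the arrays centred, 79 of 212 such genes (37.3%) lay above the median of array 1, which by construction splits all values of that array evenly, among them *CycE* and *mad2* but not *CycD*. The part of array 1 in these results was not tested.

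A wider list of 94 genes of the pathway, none of them in the list of 40, was used for context. Of these, 45 had a row and 27 had values on at least 2 arrays. By the rule, 11 of the 27 were lower in hand173, against 20.5% of all genes, and 4 were higher, against 9.69%. On centred arrays the numbers were 12 and 4, against 21.9% and 11.8% of all genes. Both counts of higher genes include CG17054, a number shared by *Cap-G* and *ND-MWFE* that cannot be assigned to either. For the 43 genes with a value on array 3, the median log2 ratio there was -0.70, which is 0.14 below the median of the array.

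Among other replication factors, 3 of 9 genes with at least 2 values were lower, against 20.5% of all genes. None was higher, against 9.69%. PolE1, the catalytic subunit of DNA polymerase epsilon, had log2 ratios of 1.02, -1.47 and -2.37 on arrays 1, 2 and 3. RfC38, a subunit of the clamp loader, had 0.72, -1.78 and -2.56. As for *CycD*, both were low on arrays 2 and 3 and above 0 on array 1, at percentiles 53.9 and 33.1 of that array. The dUTPase, which keeps uracil out of DNA, had -2.61 on array 2 and -1.16 on array 3. On centred arrays *RfC4* and *Sld5* were also scored as lower and *PolD1*, the catalytic subunit of DNA polymerase delta, as higher.

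Among other cyclins and regulators, 4 of 6 genes were lower and none was higher, against 20.5% and 9.69% of all genes. On centred arrays 3 of the 6 were lower and none was higher, against 21.9% and 11.8%. Dp, the partner of E2F proteins on DNA, had log2 ratios of -1.21 on array 2 and -1.92 on array 3 and was at 0.0047 on array 1. *CycG* had -0.75 and -2.08 on arrays 2 and 3. Archipelago (*ago*), the F-box protein that targets Cyclin E for degradation, had -0.84 and -1.63 on the same arrays, so that the gene for Cyclin E and the gene for its degradation factor were both low there. Roughex (*rux*), an inhibitor of Cyclin A and Cdk1, had -1.11 on array 1 and -0.70 on array 3, and no longer passed on centred arrays. The study also scored *CycG* as lower and measured it again by quantitative PCR, in RNA of whole larvae. *CycG* is absent from the study's list of genes with altered levels by PCR, and no PCR value for it is given. Most genes measured again were below the study's threshold in the PCR or differed there from the arrays.

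Mitotic and chromosome genes were scored in both directions. Of 5 genes of mitotic kinases, the spindle checkpoint and cytokinesis with at least 2 values, 2 were lower and 1 was higher. Of 5 genes of cohesin, condensin and separase, 1 was lower and 3 were higher. Among all genes 20.5% were lower and 9.69% higher. The cytokinesis gene *feo* had log2 ratios of -1.07 on array 2 and -2.35 on array 3. Rod, which recruits spindle checkpoint proteins to kinetochores, had 0.92, -1.25 and -2.07 on arrays 1, 2 and 3. It was low on arrays 2 and 3 like *mad2*. On array 1 it lay at percentile 46.2, below the median of the array, whereas *mad2* lay at percentile 83.5. The cohesin subunit *SA1* had -3.11 and -3.66 on arrays 2 and 3, averaging -3.39 ± 0.38 (SD, n = 2 arrays). The higher genes were the septin *pnut*, with 1.38 on array 1 and 0.43 on array 3, the condensin gene *Cap-H2*, with 1.92, 1.23 and -0.40, the separase gene *Sse*, with 0.89, 1.02 and 0.07, and CG17054, with 1.40, 0.56 and 0.63. The annotation gives CG17054 as an older number of both *Cap-G* and *ND-MWFE*, so that the spot cannot be assigned to either. Of these 4, *pnut* was not scored on centred arrays.

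Rad9, part of the clamp that the DNA damage checkpoint loads at lesions, was lower on every array, with log2 ratios of -1.25, -2.04 and -2.47. Its centred values of -2.22, -2.42 and -1.92 lay closer together, with a mean of -2.18 ± 0.25 (SD, n = 3 arrays). Among the genes of both lists, *SA1* alone passed the adjusted p threshold of 0.05 in limma with the values as deposited (adjusted p = 0.0015), and *SA1* and *Rad9* passed it on centred arrays (adjusted p = 0.039 for each). These p-values cover the spread between arrays of 1 pair of RNA pools.

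**Figure D4:**
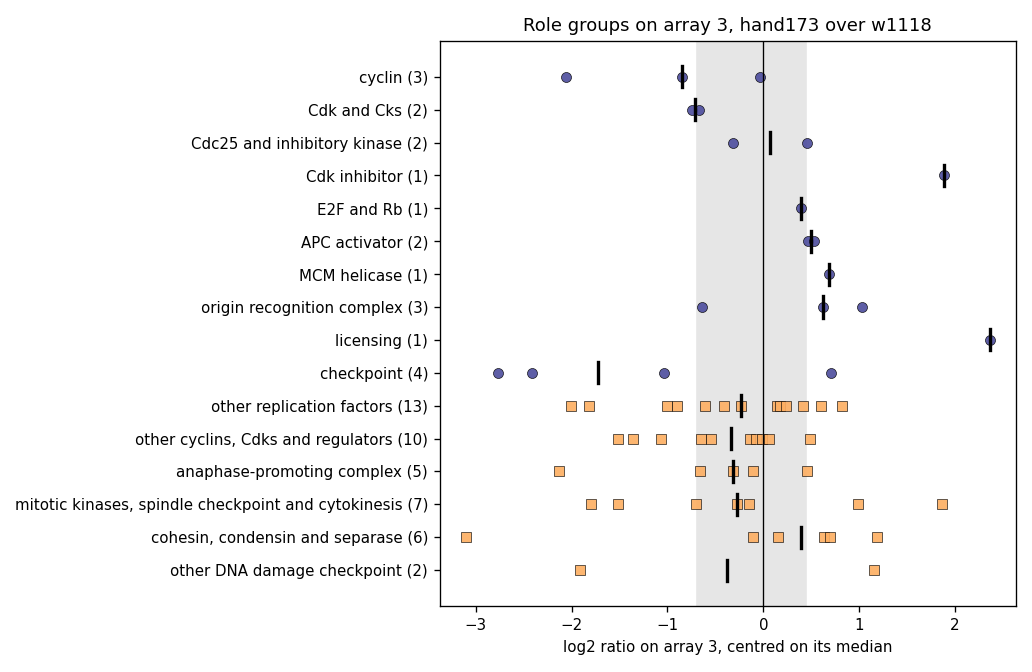
Log2 ratio on array 3 centred on its median (x axis) for the 20 cell cycle and replication genes by role (circles) and for the other genes of the pathway by list (squares), with the number of genes in parentheses, black bars at group medians and a grey band for the middle 50% of all genes. Cyclins, Cdks and 3 of 4 checkpoint genes lie below 0, and the Cdk inhibitor and *geminin* lie furthest above it.

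A log ratio gives no level in either genotype, so that the tissue could be checked only by the ratios of marker genes. The label of the amplification step names fat body as the source of RNA, whereas the tissue labels name heart tubes. Of 10 heart and muscle markers, 7 had a row and only *Mlc1*, which was not scored, had values on at least 2 arrays. Log2 ratios on array 3 ran from -2.16 for *up* to 0.75 for *Mlc2*, and *Mhc* had 2.15 on array 2. *tin*, *Act57B* and *wupA* had no row. Of 7 pericardial nephrocyte markers, 4 had a row, each with a single value, and *prc*, *odd* and *Amnionless* had none.

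Markers of other cells were scored in part. Of 12 markers of hemocytes and the lymph gland, 7 had a row and 1 had values on at least 2 arrays. This was *Pxn*, with log2 ratios of 0.30, -1.69 and -2.96 on arrays 1, 2 and 3, low on arrays 2 and 3 and above 0 on array 1 like *CycD*, while the hemocyte markers *Hml*, *He* and *eater* had no row. The hemocyte markers *srp* and *crq*, measured on array 2 only, had 2.15 and 0.90 there. On array 3, the 5 hemocyte markers with a value ranged from -2.96 to 1.38. Of 7 fat body markers, 6 had a row. *Lsp1alpha* had 1.36, -3.30 and -3.61 on arrays 1, 2 and 3 and was scored as lower, and *Fbp1*, with 1.10 and 0.91 on arrays 1 and 2, was scored as higher as deposited and not on centred arrays. *Lsp2* had 0.49 on array 3. Of 5 testis markers 3 had a row, with 1.46 for *bam*, -0.16 for *can* and -1.25 for *Mst87F* on array 3. Of these only *can* had values on at least 2 arrays, and it was not scored. Of 4 markers of imaginal discs and neuroblasts 1 had a row, with a single value. The part of these cells in the values of the cell cycle genes was not tested.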

How the data were processed

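RNA of hand173 and w1118 larval hearts (1 pool per genotype) was hybridized to 3 spotted 2-colour arrays. Scans were read and normalized by the authors in GenePix and Acuity, and each gene has 1 deposited log2 ratio of hand173 over w1118 per array. The normalization method, the spot filter and the reason for empty cells are not given in the sources used here, and signal over background is unknown. The use of 1 RNA pool per genotype limits the comparison of the genotypes. The number of arrays limits only how precisely these pools were measured.

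Values were used as deposited and centred on the median of each array. CG numbers were matched to gene symbols of RefSeq (assembly Release 6 plus ISO1 MT). Of 96 numbers of the wider pathway list, 2 belonged to another gene there and were left out. Genes were scored by the study's rule (ratio over 1.33 or under 0.67 on at least 2 arrays), with no test. limma was fitted to all 2517 genes with at least 2 values, with Benjamini-Hochberg adjustment. It was also tested on simulated independent arrays of equal level. These do not cover the differences in level between the deposited arrays. Genes named are all listed genes with a row, pathway genes and markers scored by the rule, and defining markers. The members and lists were chosen with earlier results of these data known. Promoter motifs were not analysed here. Python 3.11.15, numpy 2.4.6, pandas 2.3.3, matplotlib 3.10.9, R 4.3.3 and limma 3.58.1 were used.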

Additional observations from a re-analysis of the deposited data

How the results depend on the processing

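The count of 4 genes scored as lower was also 4 on centred arrays, at a 2-fold threshold and with a threshold symmetric on the log scale, and 3 with the mean over the arrays or with genes of 3 values only. The count was 0 when all 3 arrays had to pass and in limma, both as deposited and on centred arrays. Leaving out 1 array at a time gave 0 to 4 genes, with 0 where array 2 or array 3 was missing. The count of 1 gene scored as higher was 0 on centred arrays, with all 3 arrays required, at a 2-fold threshold and in both limma fits, and 3 when the mean over the arrays had to pass. With 1 array left out it was 0 to 1, and 1 only where array 2 was missing. The median of the mean log2 ratio was 0.28 on centred arrays as well, but -0.78 for genes with 3 values. It ran from -0.65 (no array 1) to 0.38 when 1 array was left out. Each time, genes left with fewer than 2 values were dropped, so that the genes changed along with the arrays. The median on array 3 was 0.18 with that array centred. The mean of *CycE* ran from -1.58 with array 1 left out to 0.38 with array 2 left out, and was 0.21 with array 3 left out. Each lower call rests on arrays 2 and 3. Spot intensities were not used, so that a ratio near the background cannot be told from a true one.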

Other observations

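Some genes of the wider pathway list that were measured on array 3 only are named here because of their values. The anaphase-promoting complex holds *shtd*, its scaffold subunit, with a log2 ratio of -2.69, while the subunits *Cdc16*, *mr* and *Cdc23* had -1.21, -0.67 and -0.10. The spindle checkpoint kinase genes *Bub1* and *Mps1* had 1.31 and -0.70. Of other genes of that checkpoint, *BubR1* was at 0.15, *rod* at -2.07 and *mad2* at -3.32 on the same array. The 5 genes of the list of 40 that were scored lie on 5 chromosome arms of the RefSeq assembly, *CycD* on X, *CycE* on 2L, *Cdk2* on 3R, *mad2* on 3L and *Orc6* on 2R, and *hand* lies on 2L.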
